A study of Mus musculus with 32 samples.

Results

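Imprinted genes that control growth before and after birth were followed through 32 RNA sequencing libraries of mouse hind leg muscle. The 10 genes are H19, Igf2, Dlk1, Meg3, Rian, Mirg, Cdkn1c, Peg3, Mest and Grb10. They were chosen by gene symbol, and each of the 10 had 1 row among the 54838 genes listed in the deposited table. The mice were male and up to 3 months old. They were wild type or carried the M743T substitution in GNE, the key enzyme of sialic acid synthesis, on both alleles as a knock-in, and the labels call each knock-in mouse either healthy or sick, without giving the signs of sickness. There were 4 libraries of wild-type gastrocnemius, 3 of healthy and 3 of sick knock-in mice, and for quadriceps and for tibialis 4, 4 and 3 libraries of these states. The substitution changes a codon, so the level of an mRNA is no check of the genotype labels. The labels give 4 mice per state, fewer than the libraries of each state, so libraries of different muscles share mice. Which libraries share a mouse across muscles is not labelled, and all p-values therefore speak of the spread between libraries only.

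An imprinted gene is read from 1 parental allele. DNA methylation of a control region, set in the germ line on 1 of the alleles, tells the alleles apart. Igf2, Dlk1, Peg3 and Mest are read from the paternal allele. H19, Meg3, Rian, Mirg and Cdkn1c are read from the maternal allele, and Grb10 is read from the maternal allele in most tissues outside the brain. Many of these genes are abundant in fetal and newborn muscle and decline as growth slows, and H19 stays abundant in adult skeletal muscle. The deposited counts do not separate the alleles, so every value below is the sum over both.

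H19 and Igf2 are neighbours on mouse chromosome 7 (GRCm38 coordinates throughout). H19 (ENSMUSG00000000031) spans chr7:142575529-142578143 and Igf2 (ENSMUSG00000048583) spans chr7:142650766-142666816, both on the minus strand, with 72622 bases between them. Cdkn1c lies on the same chromosome at chr7:143458339-143461050 and Peg3 at chr7:6703892-6730431, both on the minus strand. Dlk1 (chr12:109452823-109463336), Meg3 (chr12:109541001-109571726), Rian (chr12:109603940-109661716) and Mirg (chr12:109729764-109749460) follow each other on the plus strand of chromosome 12. The gaps are 77664 bases from Dlk1 to Meg3, 32213 from Meg3 to Rian and 68047 from Rian to Mirg. Mest lies at chr6:30723547-30748465 on the plus strand and Grb10 at chr11:11930508-12038683 on the minus strand. H19, Meg3, Rian and Mirg are annotated as noncoding and the others as protein-coding.

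The noncoding members, and Igf2 and Mest, are also hosts of microRNAs, short RNAs that repress mRNAs through base pairing of the seed (bases 2 to 8, in capitals). RefSeq entries on GRCm38.p6 place 1 hairpin in H19 (miR-675, in an exon), 1 each in introns of Igf2 (miR-483) and Mest (miR-335), 3 in Rian and 14 in Mirg. Meg3 holds miR-770 in an exon. Mature sequences from H19 (miR-675), Igf2 (miR-483), Mest (miR-335), Meg3 (miR-770), Rian (miR-370) and Mirg (miR-453, miR-496a and miR-410) are shown because the host transcripts below are the precursors of these RNAs. Among the mature microRNAs of all hosts, the seed GGUUGCC was the only one that was shared, by miR-453 and miR-496a-5p, both from Mirg. Counts of the microRNAs themselves are not analysed here.
miR-675-5p: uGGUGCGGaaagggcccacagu
miR-675-3p: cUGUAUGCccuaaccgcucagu
miR-483-5p: aAGACGGGagaagagaagggag
miR-483-3p: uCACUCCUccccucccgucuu
miR-335-5p: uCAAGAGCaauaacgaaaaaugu
miR-335-3p: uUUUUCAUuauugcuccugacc
miR-770-5p: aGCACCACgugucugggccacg
miR-370-3p: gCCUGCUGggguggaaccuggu
miR-453: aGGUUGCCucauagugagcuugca
miR-496a-5p: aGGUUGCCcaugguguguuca
miR-410-3p: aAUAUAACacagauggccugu

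Upstream regions of Peg3 and Mest are shown as those of a gene that rose and a gene that fell in the sick tibialis, and that of Meg3 because it leads the 3 RNAs whose levels varied together. Each is the 250 bases before a RefSeq start (GRCm38.p6), at chr12:109540746-109540995 on the plus strand, chr6:30737800-30738049 on the plus strand and chr7:6730420-6730669 on the minus strand. Capitals mark matches on either strand to TGCCGC, the hexamer bound by the imprint-protecting protein ZFP57, to TATAAA or to GGGCGG, and overlapping matches are joined. There were 2 matches to TGCCGC in the Mest region and 1 in the Meg3 region. The share of all 32851 RefSeq promoters with a TGCCGC match in these 250 bases is 8.68%, with TATAAA 12.4% and with GGGCGG 32.7%. The Peg3 region held none of these letters, and neither CACGTG (6.02% of promoters) nor AAGATGGC (1.56%, the core of the YY1 motif) was found in any of the members' 250-base regions. The promoter table has no entry for H19 or Cdkn1c. The most CpG-rich region of the members was 1 of Grb10, with 40 CpG dinucleotides against a median of 6 over all promoters.
Meg3 upstream region: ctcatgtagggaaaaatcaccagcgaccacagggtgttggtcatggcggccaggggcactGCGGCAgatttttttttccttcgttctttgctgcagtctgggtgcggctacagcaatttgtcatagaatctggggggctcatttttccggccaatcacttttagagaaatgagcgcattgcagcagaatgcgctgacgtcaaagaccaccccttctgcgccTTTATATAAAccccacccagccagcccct
Mest upstream region: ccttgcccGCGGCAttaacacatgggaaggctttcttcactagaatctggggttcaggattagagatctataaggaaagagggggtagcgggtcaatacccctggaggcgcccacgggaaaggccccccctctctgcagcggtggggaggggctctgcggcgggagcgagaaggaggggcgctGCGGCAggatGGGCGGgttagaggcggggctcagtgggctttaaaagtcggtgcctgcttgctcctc
Peg3 upstream region: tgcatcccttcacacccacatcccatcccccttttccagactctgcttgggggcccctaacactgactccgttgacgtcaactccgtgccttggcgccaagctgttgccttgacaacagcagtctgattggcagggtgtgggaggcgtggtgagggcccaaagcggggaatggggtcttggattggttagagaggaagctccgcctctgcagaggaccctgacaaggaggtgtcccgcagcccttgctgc

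Levels are given as CPM, the reads of a gene per 1e6 reads of the TMM-scaled library total. Total counts ran from 7685164 to 42588233 per library, and the 10 genes together took 0.0503% to 0.288% of them. All 10 passed the filter on low counts in each muscle. The deepest gene of the set, H19, had 4235 to 46793 reads per library, and the shallowest, Mirg, had 3 to 222. The 10 muscle fibre markers summed to 109803 to 221908 CPM, and none of them was at 0 in any library. A set of 9 kidney tubule markers stood apart in the wild-type tibialis. Their summed CPM was 56.6 to 75.5 there, with all 9 detected in each of the 4 libraries, against 0.144 to 1.96 in the healthy and 0.466 to 0.635 in the sick tibialis, where 5 or 6 of the 9 were at 0. One gastrocnemius library, healthy knock-in replicate 2, had 22.5. The part of these reads in the tibialis differences below was not tested.

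Per kilobase of annotated exon, the median level over the 32 libraries fell in the order H19, Cdkn1c, Grb10, Peg3, Rian, Meg3, Mest, Igf2, Dlk1 and Mirg. H19 stood far above the rest with a median of 258 CPM per kilobase. Cdkn1c followed with 10.5, Grb10 with 5.93, Peg3 with 5.38, Rian with 2.84 and Meg3 with 1.89. The median was 1.12 for Mest, 0.521 for Igf2, 0.400 for Dlk1 and 0.231 for Mirg. The steadiest gene over all libraries was Grb10, whose highest CPM was 3.63 times its lowest. The widest ranges were those of Mirg (46.0 times), Rian (40.3 times), Igf2 (27.6 times) and Peg3 (21.0 times).

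**Figure D1:**
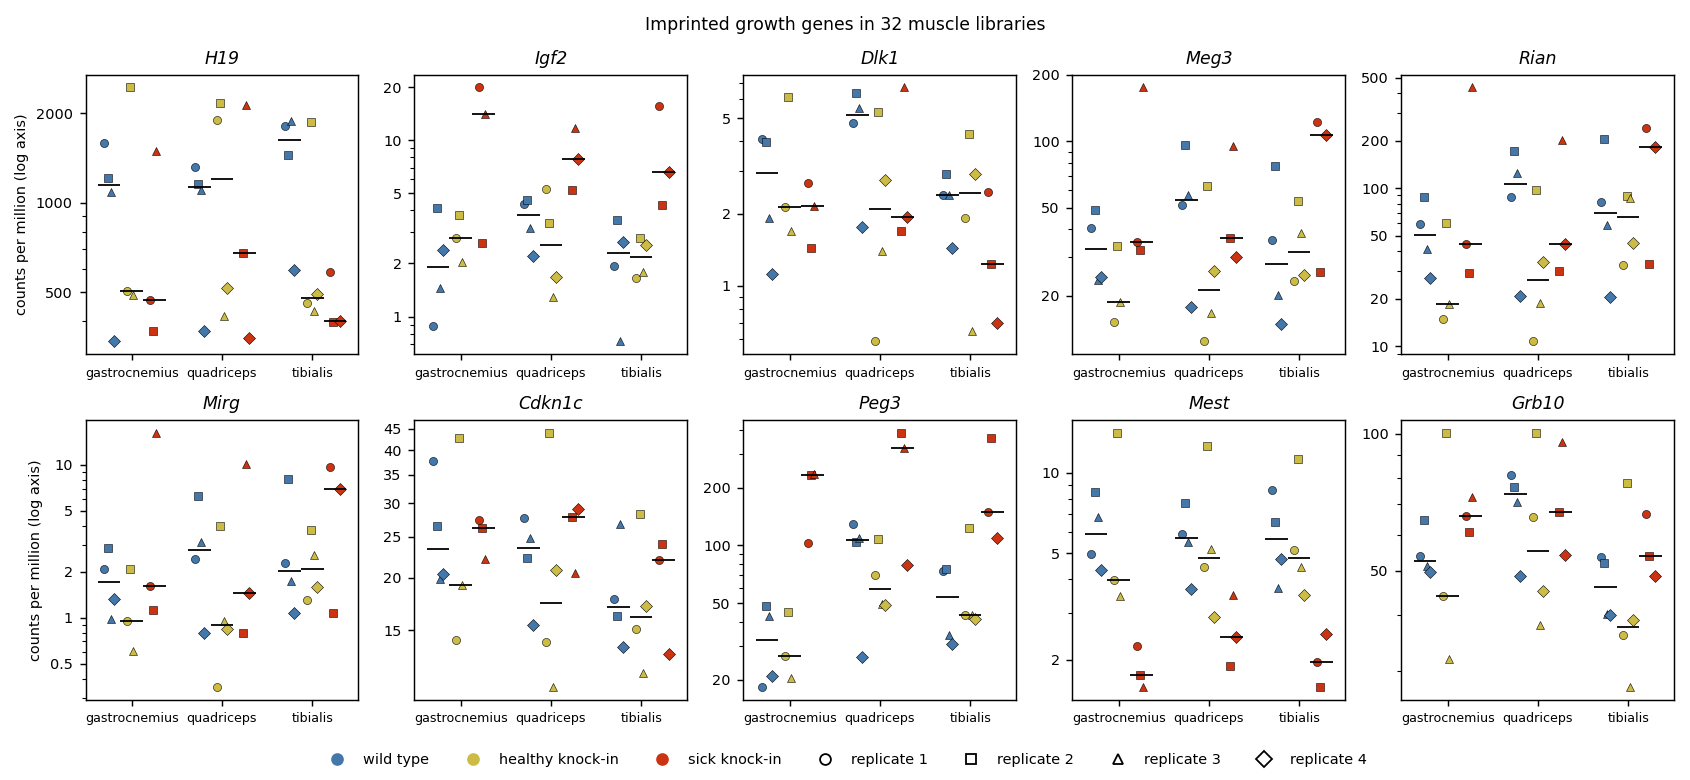
CPM of each gene (log axis) by muscle; colour gives the state, the symbol gives the replicate number and the bar is the group median. In the gastrocnemius the sick libraries of Peg3 (103 to 236) lie above all others of that muscle, and those of Mest (1.58 to 2.26) below them.

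Peg3, a zinc finger protein that in muscle is found in satellite cells and in fibres under stress, had the most repeatable change of the set. In the gastrocnemius its 3 sick libraries had 103, 232 and 236 CPM. The wild-type libraries had 18.3, 48.2, 43.1 and 21.0, and the healthy knock-in libraries 26.7, 45.1 and 20.4. The sick libraries were above all libraries of the other states, and the healthy and wild-type ranges overlapped. The log2 fold change of sick against wild type was 2.58 ± 0.45 (SE, limma adjusted p = 0.00782) and of sick against healthy 2.63 ± 0.48 (limma adjusted p = 0.00819). These comparisons share the sick libraries.

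In the tibialis Peg3 reached 148, 360 and 110 CPM in sick libraries. The wild-type tibialis had 73.5, 75.1, 34.2 and 30.8 and the healthy tibialis 43.4, 123, 43.4 and 41.5. Sick libraries were all above wild type, and the highest healthy library, replicate 2, was above the lowest sick one. Peg3 rose by 1.86 ± 0.50 (log2, SE) against wild type (limma adjusted p = 0.0274) and by 1.68 ± 0.50 against healthy (limma adjusted p = 0.0498). The first call was lost without wild-type replicate 3 or 4 or sick replicate 2 (limma adjusted p = 0.0686, 0.0523 and 0.110), and the second held in 6 of 14 alternative settings. In the quadriceps 2 sick libraries had 384 and 321 CPM and the third, replicate 4, had 79.0, within the wild-type range of 26.2 to 129. The log2 difference from wild type was 1.47 ± 0.64 (limma adjusted p = 0.127) and from healthy 1.70 ± 0.65 (limma adjusted p = 0.0887). Without sick replicate 4 these became 2.16 (limma adjusted p = 0.0231) and 2.41 (limma adjusted p = 0.0156).

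Igf2, the fetal insulin-like growth factor that signals through the IGF1 and insulin receptors, was low in every library, with 10 to 283 reads. In the tibialis the sick libraries had 15.7, 4.29 and 6.64 CPM. The wild-type tibialis had 1.94, 3.51, 0.724 and 2.63, and the healthy tibialis 1.65, 2.79, 1.80 and 2.56. All sick libraries lay above all others of that muscle. Igf2 rose by 1.91 ± 0.50 (log2, SE) against wild type (limma adjusted p = 0.0261) and by 1.72 ± 0.49 against healthy (limma adjusted p = 0.0446). Neither call held in every setting: the first was lost without wild-type replicate 1 or 3 or sick replicate 1 (limma adjusted p = 0.0598, 0.0577 and 0.0553), and the second without sick replicate 1 or any single healthy library (limma adjusted p = 0.0768 to 0.0996).

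In the quadriceps Igf2 stood at 5.22, 11.7 and 7.84 CPM in sick libraries. Wild-type libraries had 4.33, 4.59, 3.17 and 2.19 and healthy libraries 5.28, 3.41, 1.30 and 1.69. The sick libraries were above all wild-type ones, and 1 healthy library, replicate 1, lay just above the lowest sick one. The rise against healthy was 1.76 ± 0.44 (log2, SE, limma adjusted p = 0.0240), and without healthy replicate 3 or sick replicate 3 it lost the call (limma adjusted p = 0.111 and 0.0724). This call was also lost with only the 2 groups compared and with all 32 libraries in the fit (limma adjusted p = 0.0706 and 0.0704). Against wild type the difference was 1.04 ± 0.38 (limma adjusted p = 0.0741). In the gastrocnemius 2 sick libraries had 20.0 and 14.1 CPM, while replicate 2 had 2.61, inside the wild-type range of 0.886 to 4.12. The difference from wild type there was 2.21 ± 0.74 (limma adjusted p = 0.0707), and without sick replicate 2 it was 3.27 (limma adjusted p = 0.00834).

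The Igf2 level carries a limit of annotation. The gene model Gm49394 runs on the same strand and shares 62.8% of the exon bases of Igf2, and it had 0 reads in all 32 libraries. How the counting treated reads that fall in both models is not known here, so the Igf2 values rest on an unknown part of its exons and its level per length may be too low. Igf2os, an antisense transcript that shares 1.71% of the exon bases, had 0 to 9 reads per library.

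Mest, a membrane protein of the hydrolase fold that is read mainly in embryonic mesoderm, went the other way. Its sick libraries had 2.26, 1.76 and 1.58 CPM in the gastrocnemius. The wild-type gastrocnemius had 4.97, 8.50, 6.85 and 4.34 and the healthy one 3.97, 14.1 and 3.45. In the tibialis the sick libraries had 1.96, 1.59 and 2.50 against 8.64, 6.52, 3.69 and 4.75 in wild type and 5.15, 11.3, 4.46 and 3.49 in healthy libraries. In both muscles every sick library was below every library of the other states. Mest fell by 1.53 on the log2 scale (SE 0.47) in the sick tibialis against wild type (limma adjusted p = 0.0417). Leaving out wild-type replicate 1, 2 or 4, or any 1 of the sick libraries, ended that call (limma adjusted p = 0.0521 to 0.164).

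The other Mest differences missed the threshold, though alternative settings called Mest lower in 5 of 14 for sick minus wild type in the gastrocnemius, 1 of 14 in the quadriceps, and for sick minus healthy in 2 of 13 in the gastrocnemius and 4 of 14 in the tibialis. Sick minus wild type was -1.67 ± 0.56 in the gastrocnemius (limma adjusted p = 0.0649) and -1.25 ± 0.45 in the quadriceps (limma adjusted p = 0.0707), where sick libraries had 1.90, 3.49 and 2.42 CPM and wild-type ones 5.89, 7.71, 5.52 and 3.68. Sick minus healthy was -1.60 ± 0.60, -1.18 ± 0.47 and -1.52 ± 0.47 in gastrocnemius, quadriceps and tibialis (limma adjusted p = 0.0957, 0.101 and 0.0546). Copg2, which lies on the opposite strand and shares 23.1% of the exon bases of Mest, had 132 to 797 reads per library, more than the 14 to 272 of Mest. Copg2 itself fell by 0.55 in the sick gastrocnemius against healthy (limma adjusted p = 0.0387), and against wild type it differed by -0.22, -0.23 and -0.35 in gastrocnemius, quadriceps and tibialis (limma adjusted p = 0.321, 0.232 and 0.124). The strand setting of the counting is not known here, and without it reads of that stretch cannot be divided between them.

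H19 is a noncoding RNA that acts as a regulator of the growth gene network and as the host of miR-675. In the tibialis its sick libraries had 585, 398 and 399 CPM and its wild-type libraries 1809, 1449, 1878 and 593. All sick libraries were below wild type, the lowest wild-type library (replicate 4) by a small margin. The difference was -1.53 ± 0.50 (log2, SE, limma adjusted p = 0.0530), and without wild-type replicate 4 it was -1.88 (limma adjusted p = 0.0278). Of the 4 healthy tibialis libraries 3 lay between 434 and 494 CPM, within the sick range, and replicate 2 had 1874. The sick minus healthy difference was -0.52 ± 0.50 (limma adjusted p = 0.492).

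In the other muscles H19 spread as widely within groups as between them. The gastrocnemius had 1594, 1215, 1083 and 342 CPM in wild-type, 506, 2445 and 490 in healthy and 470, 371 and 1488 in sick libraries. The quadriceps had 1323, 1157, 1106 and 371 in wild-type, 1891, 2165, 415 and 518 in healthy and 676, 2128 and 352 in sick libraries. The sick minus wild-type difference was -0.43 (95% confidence interval -2.01 to 1.16) in the gastrocnemius and -0.07 (-1.74 to 1.60) in the quadriceps, so that changes of several fold either way could not be resolved.

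Because H19 and Igf2 share enhancers and are read from opposite alleles, their reads were also set against each other in each library. In the tibialis the sick libraries had 26.8, 10.8 and 16.6 Igf2 reads per 1000 H19 reads. The wild-type tibialis had 1.07, 2.42, 0.386 and 4.44 and the healthy one 3.58, 1.49, 4.15 and 5.18, so the sick libraries were above all others of that muscle. In the gastrocnemius the sick libraries had 42.5, 7.03 and 9.50, all above the wild-type range of 0.556 to 6.95 and the healthy range of 1.53 to 5.52. In the quadriceps they had 7.72, 5.51 and 22.3, against 2.87 to 5.90 in wild-type and 1.58 to 3.26 in healthy libraries. By exact two-sided permutation tests on the log2 ratio, sick against healthy gave p = 0.0286 in the quadriceps and in the tibialis, the smallest that 3 against 4 libraries allow, and p = 0.1 in the gastrocnemius, the smallest for 3 against 3. Sick against wild type gave p = 0.0571, 0.0857 and 0.0571 in gastrocnemius, quadriceps and tibialis by the same exact test. With Benjamini-Hochberg adjustment over the 9 comparisons of this ratio the lowest value of the exact test was 0.129. A single comparison at the smallest possible exact p of 0.0286 could not pass 0.05 after this adjustment. With so few libraries the adjusted values therefore decide nothing about this ratio.

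**Figure D2:**
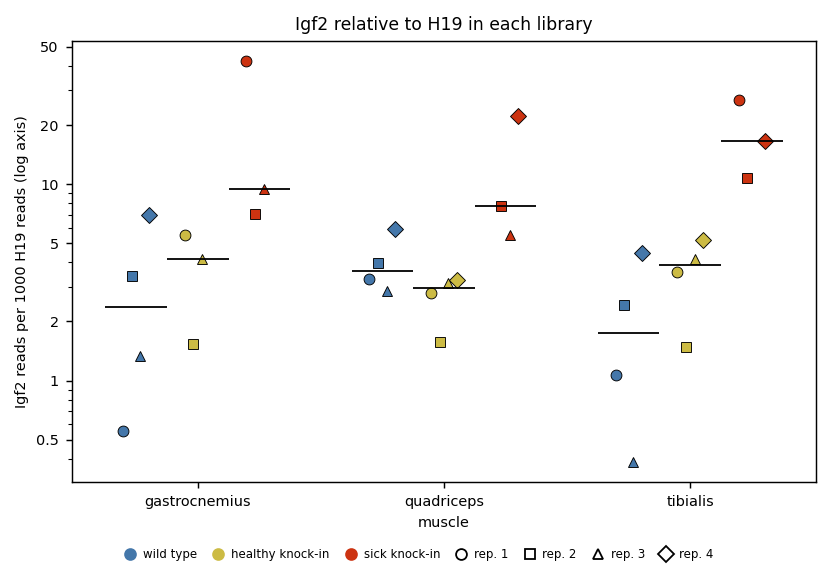
Igf2 reads per 1000 H19 reads (log axis) in each library by muscle, with colour for the state, the symbol for the replicate number and a bar at the group median. Sick tibialis libraries (10.8 to 26.8) and sick gastrocnemius libraries (7.03 to 42.5) lie above those of the other states, and in the quadriceps 1 wild-type library (5.90) lies above the lowest sick one (5.51).

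Dlk1 encodes a Notch-like membrane ligand of fetal muscle and of precursor cells of fat. It was low in every library, with 5 to 225 reads, and no difference between states passed. Sick minus wild type was -0.37 ± 0.57, -0.90 ± 0.61 and -0.73 ± 0.59 (log2, SE) in gastrocnemius, quadriceps and tibialis (limma adjusted p = 0.681, 0.309 and 0.387). The quadriceps was the muscle with most Dlk1 in wild type, at 4.76, 6.38, 5.52 and 1.75 CPM.

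Meg3, Rian and Mirg, the noncoding RNAs of the Dlk1 cluster, varied widely between libraries of 1 group. Rian had 435 CPM in sick gastrocnemius replicate 3 and 44.1 and 29.2 in the other sick libraries of that muscle. The wild-type gastrocnemius had 59.2, 87.9, 41.5 and 27.0 and the healthy one at most 60.1. In the tibialis sick replicates 1 and 4 had 242 and 183 CPM and replicate 2 had 33.4, and wild type ran from 20.6 to 204. Meg3 had 123 and 107 CPM in those 2 libraries, above all wild-type (14.9 to 77.5) and healthy (23.4 to 53.7) tibialis libraries, and 25.5 in sick replicate 2. None of the 3 genes passed in any comparison of states by the main limma fit. The nearest was Meg3 in the gastrocnemius, sick minus healthy 1.49 ± 0.60 (limma adjusted p = 0.121), and Meg3 in the tibialis, sick minus wild type 1.24 ± 0.60 (limma adjusted p = 0.156). With sample quality weights the gastrocnemius difference of Meg3, sick minus healthy, became 2.25 (limma adjusted p = 0.0321).

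The levels of these RNAs relative to each other moved less. Rian reads per Meg3 read differed between states by -0.49 to 0.22 on the log2 scale over the 9 comparisons of states, and Mirg per Meg3 by -0.43 to 0.11. For Rian the exact permutation p-values ran from 0.114 to 0.8, and for Mirg from 0.114 to 0.943.

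Cdkn1c encodes p57, an inhibitor of cyclin-dependent kinases that goes with exit from the cell cycle in muscle. Its sick minus wild-type difference was 0.00 ± 0.34, 0.23 ± 0.37 and 0.11 ± 0.31 (log2, SE) in gastrocnemius, quadriceps and tibialis (limma adjusted p = 0.995, 0.698 and 0.821). The widest of these intervals, in the quadriceps, ran from -0.60 to 1.05. All its libraries were at or under 29.1 CPM apart from wild-type gastrocnemius replicate 1 with 37.8 and the healthy replicate 2 libraries of gastrocnemius and quadriceps with 42.8 and 44.0. Gm44732, an antisense model over 30.7% of the Cdkn1c exon bases, had no read. Grb10, an adaptor that binds the insulin and IGF1 receptors and dampens their signal, differed by 0.28 ± 0.32, 0.06 ± 0.32 and 0.29 ± 0.29 in the same comparisons (limma adjusted p = 0.567, 0.911 and 0.499). Its tibialis interval was -0.35 to 0.92. In the gastrocnemius sick minus healthy difference, leaving out healthy replicate 2 moved Grb10 from 0.36 to 0.84 (limma adjusted p = 0.501 and 0.0379).

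In counts, sick against wild type gave 1 of 10 genes higher and none lower in the gastrocnemius, none in the quadriceps (3 members and 36.6% of all genes at an unadjusted p under 0.05 by limma), and 2 higher with 1 lower in the tibialis. Over all genes tested, 14.7% (8.22% higher, 6.52% lower), 18% (10.5% higher, 7.49% lower) and 18.1% (8.44% higher, 9.61% lower) were called in these comparisons, so the members' counts were not far from the background. Sick against healthy gave 1, 1 and 2 higher and none lower, against 14.1% (7.17% higher, 6.9% lower), 17.6% (10.1% higher, 7.51% lower) and 11.3% (5.03% higher, 6.3% lower) of all genes. Healthy against wild type gave 0 of 10 by limma in each muscle, with 0.00706%, 0.0362% and 0.496% of all genes called. At an unadjusted p under 0.05 there were 0, 1 and 0 members, against 7.65%, 4.62% and 4.93% of all genes. The CPM ranges of sick and wild-type libraries were apart for 2 members in the gastrocnemius, 2 in the quadriceps and 4 in the tibialis, against 27.2%, 30.2% and 30.8% of all genes. The members' median log2 difference, sick minus wild type, was 0.45, -0.06 and 0.53 in the 3 muscles, and that of all genes tested was -0.03, 0.00 and -0.05. In bulk RNA, fewer cells of a type and less RNA per cell cannot be told apart.

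**Figure D3:**
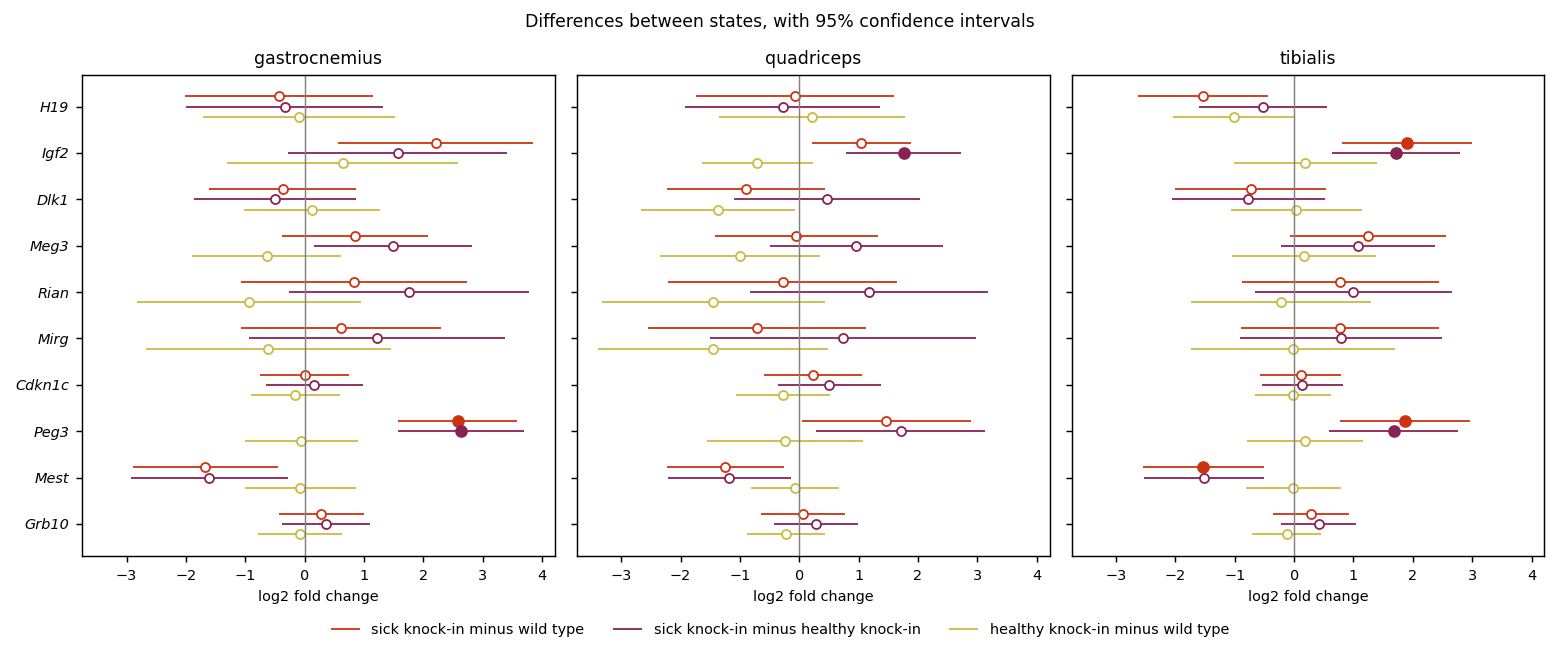
Log2 fold change of each gene (points) with its 95% confidence interval (lines) in the 3 comparisons of states, 1 panel per muscle; filled points passed an adjusted p of 0.05 by limma. Peg3 is filled in gastrocnemius and tibialis, Igf2 in quadriceps (sick minus healthy) and tibialis, and Mest in tibialis (sick minus wild type).

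The authors' deposited table holds their own test on these libraries. In the gastrocnemius, sick against wild type, the authors' deposited table lists a log2 fold change of 2.55 for Peg3 (adjusted p = 0.000185), 2.48 for Igf2 (adjusted p = 0.000602) and -1.71 for Mest (adjusted p = 0.00814). In that comparison 2 members were higher and 1 lower under 0.05 by the authors' deposited table, none in the quadriceps, and 2 higher with 1 lower in the tibialis. For sick against healthy, the authors' deposited table has 2 higher and 1 lower in the gastrocnemius, 1 higher in the quadriceps (Peg3) and 2 higher with 1 lower in the tibialis. No member was under 0.05 in the authors' deposited table for healthy against wild type. How many of all genes were under 0.05 by the authors' test is not given here, so these member counts have no background beside them.

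Between wild-type muscles no member passed by limma, and 1.07%, 2.58% and 5.67% of all genes were called for quadriceps against gastrocnemius, tibialis against gastrocnemius and tibialis against quadriceps. The members at an unadjusted p under 0.05 were 2, 0 and 2 of 10, against 10.9%, 14.9% and 21.8% of all genes. Peg3 was 1.34 ± 0.52 higher on the log2 scale in the quadriceps than in the gastrocnemius (limma adjusted p = 0.356), and without quadriceps replicate 4 it was 1.90 higher (limma adjusted p = 0.0432). Wild-type libraries with 1 replicate number deviated together between quadriceps and tibialis. With the number as a block, 3 members passed between them. The share of all genes called with that block is not given here, so this count has no background beside it. As log2 differences, tibialis minus quadriceps, Grb10 differed by -0.54 (limma adjusted p = 0.0237), Dlk1 differed by -0.98 (limma adjusted p = 0.0259) and H19 by 0.58 (limma adjusted p = 0.0374). Whether the sick minus wild-type change differed between muscles was tested in 1 model of all 32 libraries, with no term for the mouse. No member passed in any of the 3 pairs of muscles, and 0%, 0.204% and 0.243% of all genes were called by limma. At an unadjusted p under 0.05 there were 0 members in each, against 1.14%, 2.76% and 7.91% of all genes.

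Levels did not order the 9 groups cleanly for any member. When the groups were ranked by mean CPM, neighbours in the order overlapped for 8 of the genes at every step. The exceptions were 1 step each in Igf2 and Mest. For Igf2 the lowest library of the sick quadriceps (5.22 CPM) was above the highest of the wild-type quadriceps (4.59), and the 3 sick groups held the first 3 places. For Mest the lowest library of the wild-type quadriceps (3.68) was above the highest of the sick quadriceps (3.49), and the 3 sick groups held the last 3 places. The 3 sick groups also had the 3 highest means of Peg3 (261 ± 161, 206 ± 135 and 190 ± 75.5 CPM, SD, n = 3 each, in quadriceps, tibialis and gastrocnemius).

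Individual libraries carried much of the variation, and they did so in the same direction for most members. Healthy knock-in replicate 2 was the highest library of its group for all 10 members in gastrocnemius and tibialis and for 9 of 10 in the quadriceps. Wild-type replicate 4 was the lowest of its group for 5, 10 and 8 of the 10 members in gastrocnemius, quadriceps and tibialis. Sick replicate 3 was the highest for 6 members in the gastrocnemius and 8 in the quadriceps. For how many of all genes these libraries were the extremes of their groups is not given here, so these counts have no background beside them.

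**Figure D4:**
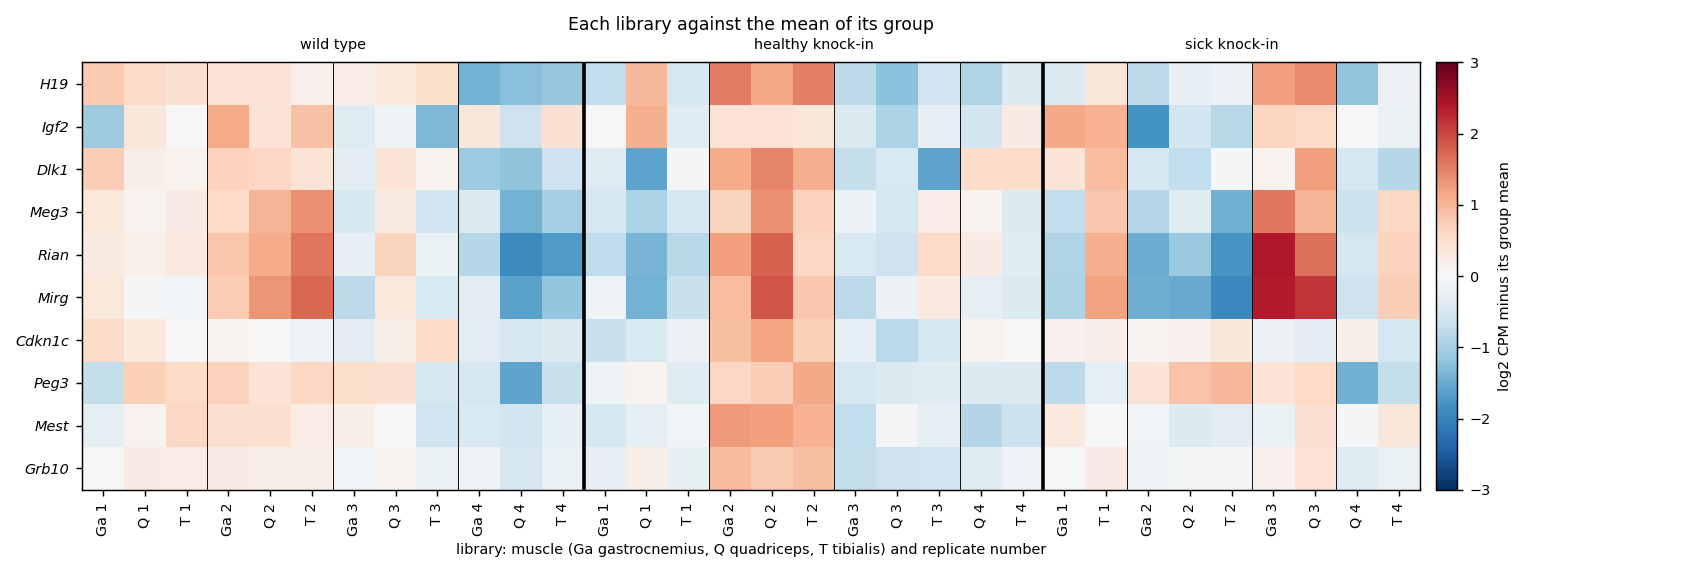
Log2 CPM of each gene (rows) in each library (columns) minus the mean of its group, with libraries ordered by state and replicate number. The columns of healthy replicate 2 are red for all genes in the 3 muscles, those of wild-type replicate 4 are blue for most, and the strongest red is Rian and Mirg in sick gastrocnemius replicate 3.

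Over the 32 libraries the deviations from the group means were positively correlated for 45 of 45 pairs of members, with a median Pearson r of 0.546. Without the 3 healthy replicate 2 libraries 43 pairs were positive and 2 negative, Igf2 with Cdkn1c (-0.141) and Mirg with Cdkn1c (-0.027). The median over all pairs of the 13562 genes tested in every muscle was -0.003. Within the chromosome 12 cluster Meg3 and Rian had r = 0.971, Rian and Mirg 0.961 and Meg3 and Mirg 0.956, while Dlk1, upstream of them and read from the other allele, had 0.610 to 0.631 with the 3. H19 and Igf2, also neighbours read from opposite alleles, had 0.360. The strongest pairs between chromosomes were H19 with Grb10 (0.836) and Mest with Grb10 (0.810). With those libraries left out, Meg3 and Rian had 0.970 and H19 and Grb10 0.779, whereas Cdkn1c and Mest fell from 0.480 to 0.006. These are descriptions over libraries, some of which share a mouse, and the genes of a library share its depth and cell makeup.

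**Figure D5:**
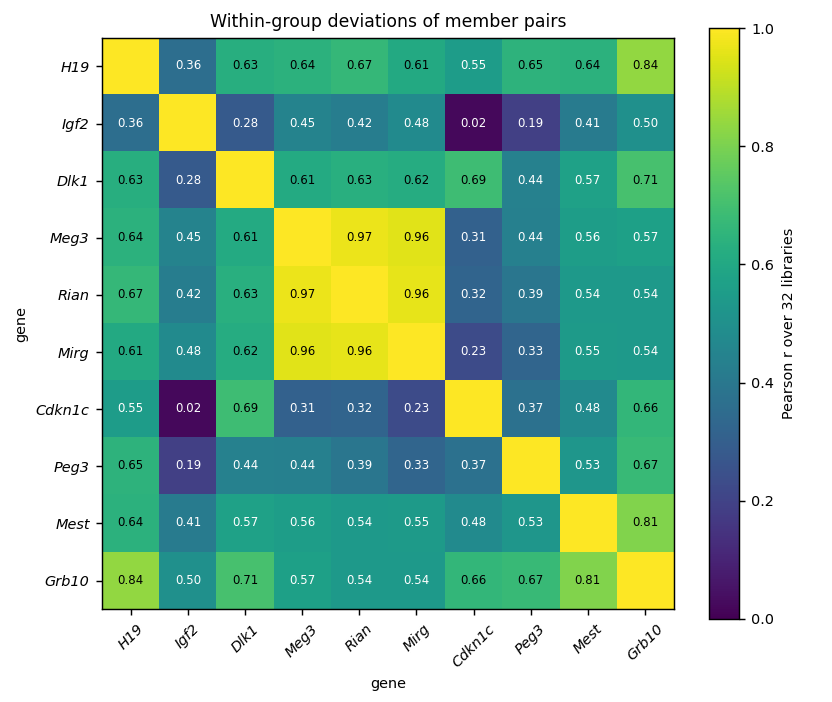
Pearson r between members (both axes) of the deviations of log2 CPM from group means over 32 libraries. The block of Meg3, Rian and Mirg (0.96 to 0.97) stands out, and the lowest values are those of Igf2 with Cdkn1c (0.02) and Peg3 (0.19).

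For each member the 3 genes most like it by this measure were taken from all 13562. Of the 30 places, 7 went to members and 6 to other imprinted genes, and 33 of the 51 other listed imprinted genes were among those searched. The member places were Meg3, Rian and Mirg for each other and Grb10 for H19. Plagl1 took a place for both Grb10 and Dlk1. Peg3 was closest to Zim1 (r = 0.925), its neighbour in an imprinted cluster. Grb10 was closest to Plagl1 (0.873), a zinc finger factor, followed by Ddc (0.853), the gene next to it, and Zdbf2 (0.844). Dlk1 was closest to Plagl1 (0.803), and its list also held Tcf19 (0.797) and Ndn (0.781). H19 was closest to 5430431A17Rik (0.883), then to Grb10 and to Itm2a (0.831). Mest was closest to Capn6 (0.902), Nid2 (0.869) and Zc3hav1l (0.853). The list of Igf2 was led by Clasp1 (0.819) and that of Cdkn1c by Kctd3 (0.788).

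Some cell type and technical measures moved with the members across libraries. Marker means were taken on log2 CPM over those of the listed markers that were tested in every muscle, each weighted alike. The deviation of H19 had r = 0.81 with the mean of regenerating or immature fibre markers (10 listed) and 0.69 with that of satellite cell markers (10 listed). It had -0.05 with the log of the total count and -0.51 with the share of mitochondrial reads. For Grb10 the values were 0.74, 0.65, -0.07 and -0.54, and for Peg3 0.56, 0.62, 0.18 and -0.51. Meg3, Rian and Mirg had 0.25 to 0.27 with the regenerating fibre markers and 0.34 to 0.37 with the tendon markers. Proliferation genes gave the highest r of these measures for Dlk1 (0.63), Cdkn1c (0.59) and Mest (0.57), and 0.61 for Grb10. With fibro-adipogenic progenitor markers Dlk1 had 0.54 and Grb10 0.55. For Igf2 the highest was 0.29, with muscle fibre markers. By summed CPM the regenerating fibre list is mostly 1 gene, Actc1, the cardiac actin that adult skeletal muscle turns down, which gave a median of 81.7% of it. The marker mean behind the r values is not weighted by level, so that share is of the sum only. Actc1 itself had 3365, 4501 and 1685 CPM in the healthy replicate 2 libraries of gastrocnemius, quadriceps and tibialis and 167, 362 and 108 in wild-type replicate 4. The summed level of the 10 regenerating fibre markers was 164 to 461 CPM in the sick and 135 to 3131 in the wild-type gastrocnemius. Without Actc1 the sums there were 106 to 149 CPM in sick libraries, all above the 44.3 to 91.2 in wild-type ones. In the quadriceps (45.1 to 217 sick, 43.8 to 55.1 wild type) and the tibialis (67.1 to 125 sick, 92.4 to 143 wild type) the sums without Actc1 overlapped. The share of mitochondrial reads was lower in all sick than in all wild-type libraries in 2 muscles, with 4.79% to 6.69% in the sick against 7.04% to 10.8% in the wild-type quadriceps, and 8.28% to 12.3% against 13.4% to 15.5% in the tibialis. In the gastrocnemius these shares overlapped (5.22% to 11.1% sick, 8.23% to 12.6% wild type). The part of these cell and library measures in the members' differences was not tested.

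Of 12 markers of fibro-adipogenic progenitors, the connective tissue cells of muscle, 6 fell and 0 rose in the sick gastrocnemius against wild type by limma, 3 and 0 in the quadriceps and 6 and 0 in the tibialis. Their summed CPM was 1384 to 1821 in the wild-type tibialis and 681 to 1366 in the sick one, with none of the 12 at 0. In the gastrocnemius (1358 to 2701 sick, 2371 to 3350 wild type) and the quadriceps (2195 to 2971 sick, 2355 to 2826 wild type) the sums overlapped. Smoc2 was among those that fell in all 3 muscles, by 1.45, 1.39 and 1.98 (limma adjusted p = 0.00729, 0.0132 and 0.000334). Cd34 (-1.29) and Clec3b (-1.51) fell in the gastrocnemius, and Lum (-1.67 and -3.38) and Col15a1 (-2.25 and -2.62) in quadriceps and tibialis, each under an adjusted p of 0.05 by limma. Of 10 tendon markers, 4 fell and 1 rose in the gastrocnemius, 1 fell in the quadriceps and 6 fell in the tibialis. Their sum was 275 to 470 CPM in the sick and 663 to 1513 in the wild-type gastrocnemius, and 72.2 to 109 against 251 to 873 in the tibialis. In the quadriceps it overlapped (159 to 623 sick, 455 to 737 wild type). Kera, a matrix proteoglycan, fell in the 3 muscles, with log2 differences of -5.89, -4.58 and -5.91 (limma adjusted p = 0.00881, 0.0313 and 0.0217). Chad fell by 4.64 and Egr1 rose by 1.87 in the gastrocnemius, and Thbs4 fell by 2.72 and Cilp2 by 4.55 in the tibialis, each under an adjusted p of 0.05 by limma. The 10 satellite cell markers summed to 242 to 336 CPM in the sick and 185 to 204 in the wild-type gastrocnemius, where Cdh15 rose by 1.02 ± 0.16 and Pax7 fell by 1.23 (limma adjusted p = 0.00541 and 0.0341). Their sums overlapped in the quadriceps (157 to 309 sick, 177 to 207 wild type) and the tibialis (177 to 257 sick, 158 to 222 wild type). Cdh15 also rose there, by 0.68 ± 0.21 and 0.83 ± 0.19, and Pax7 fell by 1.43 in the quadriceps (limma adjusted p = 0.0433, 0.0176 and 0.0378). Other marker lists gave few calls outside the tibialis. In the quadriceps the macrophage genes Lyz2, C1qa and Cd68 rose by 1.20, 0.89 and 0.93, and the adipocyte gene Lep fell by 5.74. The pericyte gene Rgs5 fell in the 3 muscles (-0.89, -0.62 and -0.97), and the endothelial gene Tie1 fell in the quadriceps (-0.66) and the tibialis (-0.75). In the tibialis the fibre genes Mb and Myh2 fell by 1.89 and 1.59 and Atp2a1 rose by 0.73, Flt1 of endothelium rose by 0.74 and S100b of Schwann cells fell by 1.94. Of 9 kidney genes tested there 8 fell, among them Umod (-6.97), Slc34a1 (-8.59) and Slc12a1 (-6.52). All of these passed an adjusted p of 0.05 by limma. The 10 smooth muscle and pericyte markers, Rgs5 among them, summed to 5868 to 6478 CPM in the sick and 4562 to 4784 in the wild-type quadriceps. Their sums overlapped in the gastrocnemius (4934 to 8557 sick, 4624 to 6580 wild type) and the tibialis (5599 to 7983 sick, 4728 to 6792 wild type). The 10 adipocyte markers, Lep among them, had overlapping sums in the quadriceps (835 to 1550 sick, 765 to 1413 wild type). The part of these cell markers in the changes of Igf2, Peg3 and Mest was not tested.

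Genes that carry the signal of IGF2 or act with GRB10 were followed as a list. Of 17 listed, 16 were tested in the gastrocnemius, where 5 rose and 2 fell against wild type, with a median log2 difference of 0.73. In the quadriceps 4 of 15 rose and 1 fell, and in the tibialis 4 of 15 rose and 3 fell. Igf1r, the receptor of IGF1 and IGF2, rose by 1.78 ± 0.22 in the gastrocnemius (limma adjusted p = 0.00219) and by 1.81 ± 0.36 in the tibialis (limma adjusted p = 0.0104). Igfbp3, a carrier of IGFs in blood, rose by 2.78 ± 0.35 in the gastrocnemius and 3.26 ± 0.58 in the quadriceps (limma adjusted p = 0.00267 and 0.0109). Igfbp5, a carrier bound to matrix, fell by 2.61 and 2.93 in these muscles (limma adjusted p = 0.00783 and 0.0122). Pik3r1, a regulatory subunit of PI3 kinase, rose by 1.28 ± 0.22 in the quadriceps and 1.99 ± 0.35 in the tibialis (limma adjusted p = 0.0101 and 0.00681). Insr, the insulin receptor, rose by 0.88 ± 0.21 in the tibialis (limma adjusted p = 0.0184).

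Cdkn1c belongs to a family of cyclin-dependent kinase inhibitors, which were followed with their targets. Of 14 listed, 2 rose and 1 fell in the gastrocnemius, 1 and 1 in the quadriceps and 1 and 2 in the tibialis. Cdkn1a, which encodes the inhibitor p21, rose by 2.50 ± 0.58, 3.73 ± 0.60 and 2.46 ± 0.69 in gastrocnemius, quadriceps and tibialis (limma adjusted p = 0.0218, 0.0101 and 0.0314). Cdkn1b, which encodes p27, rose by 0.50 ± 0.15 in the gastrocnemius (limma adjusted p = 0.0434). Ccnd1, encoding cyclin D1, fell by 1.73 in the quadriceps and 2.41 in the tibialis (limma adjusted p = 0.0216 and 0.0152), and Ccnd2, encoding cyclin D2, fell by 1.02 in the gastrocnemius and 1.12 in the tibialis (limma adjusted p = 0.0234 and 0.0429). Of 15 proliferation genes 2 fell in the quadriceps against wild type, Mcm2 by 0.94 and Top2a by 2.10 (limma adjusted p = 0.0323 and 0.0492), and none passed in the other muscles.

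Among 51 other genes listed as imprinted, 36, 33 and 37 were tested in gastrocnemius, quadriceps and tibialis. Whether each of them is read from 1 allele in muscle was not tested. Against wild type, 2 rose and 3 fell in the gastrocnemius, 1 rose and 2 fell in the quadriceps, and 2 rose and 4 fell in the tibialis. Of all genes tested, 14.7%, 18% and 18.1% were called in these comparisons. The median log2 differences of the other imprinted genes were -0.08, 0.02 and 0.06. Zrsr1, a splicing factor gene read from the paternal allele, rose by 1.08 ± 0.24 in the gastrocnemius and 0.98 ± 0.26 in the quadriceps (limma adjusted p = 0.0158 and 0.0291). Cd81, a tetraspanin, fell by 0.80, 0.69 and 1.01 in the 3 muscles (limma adjusted p = 0.0197, 0.0157 and 0.00532). Asb4 fell by 1.36 and Commd1 by 0.91 in the gastrocnemius, while Zdbf2 rose by 1.74 ± 0.42 (limma adjusted p = 0.0141, 0.0386 and 0.0231). Sgce, a sarcoglycan of the paternal allele, fell by 0.72 in the tibialis, and Ube3a rose by 0.58 ± 0.16 (limma adjusted p = 0.0171 and 0.0278). Nnat fell by 4.72 in the quadriceps (limma adjusted p = 0.0297). Slc22a18 and Slc22a2, transporters of which the second is known from kidney, fell by 2.72 and 2.51 in the tibialis (limma adjusted p = 0.00466 and 0.0161), where the kidney markers described above also fell, and the part of those reads was not tested.

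Of 11 genes that protect or copy imprints, 10 were tested, and 1 fell in the gastrocnemius and in the quadriceps and 1 rose in the tibialis. Dnmt3a, the de novo DNA methyltransferase, fell by 0.87 and 0.91 in gastrocnemius and quadriceps (limma adjusted p = 0.0234 and 0.0377). Zfp445, a zinc finger protein that guards imprints, rose by 0.98 ± 0.21 in the tibialis (limma adjusted p = 0.0142). Of 13 other genes of fetal and juvenile growth, 2 rose in the tibialis against wild type, Arid3b by 1.18 ± 0.23 and Igf2bp3, an RNA-binding protein of fetal tissue, by 2.24 ± 0.68 (limma adjusted p = 0.0101 and 0.0400), and none passed in the other muscles. Against healthy libraries, Hmga2, a chromatin protein of fetal growth, fell by 2.20, 1.38 and 1.80 in gastrocnemius, quadriceps and tibialis (limma adjusted p = 0.0422, 0.0427 and 0.0480). Lin28a, an RNA-binding protein of fetal growth, fell by 3.73 in the gastrocnemius (limma adjusted p = 0.0254), and Arid3b rose by 0.94 ± 0.23 in the tibialis (limma adjusted p = 0.0293).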

How the data were processed

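RNA from 32 muscle libraries was analysed. Reads were trimmed, aligned to GRCm38, counted and tested with cutadapt 1.18, TopHat2 2.1.1, HTSeq 0.6.0 and DESeq2 1.22.1, per the submitters' processing notes, with settings that no source here states, strand included. The deposited table of 54838 genes holds raw counts, with no values for 6252 genes. Its log2 fold changes and adjusted p-values were made by the authors and are quoted as the authors' deposited table. The 9 groups follow the labels.

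Genes passed a filter of about 10 counts in the smallest group and 15 in all. TMM scaling (trims 0.3 and 0.05) was applied to library totals, and limma 3.58.1 in R 4.3.3 (voom, 0.5 added to each count, robust empirical Bayes) was fitted to all libraries of a muscle, to the wild-type libraries for muscles, and to all 32 for differences between muscles. P-values were adjusted by Benjamini-Hochberg over all genes tested, with a threshold of 0.05. The fit was tested on simulated data. Levels are on totals scaled over all 32 libraries. Gene positions and exon lengths come from GENCODE on GRCm38 and sequences from RefSeq on GRCm38.p6. Total counts of 7685164 to 42588233 limit the precision of the low genes, whose counts carry sampling error beside the spread between libraries.

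The 10 genes and all lists were chosen with earlier results of these data known. All 10 are named in every comparison where they are discussed, and of the lists the genes with the smallest adjusted p under 0.05 are named in the comparisons described (sick against wild type for most lists), up to 5 of the other imprinted genes and up to 3 of any other list per comparison. Across muscles, libraries with 1 state and number deviated together over all genes (28 pairs, median r = 0.507, against -0.160 for 87 pairs of different number). All 4 wild-type pairs were above 0.1 between quadriceps and gastrocnemius (lowest 0.325) and between tibialis and quadriceps (lowest 0.274), and not between tibialis and gastrocnemius. Alternatives were another scaling, no filter, limma-trend, sample quality weights, fewer or more libraries in the fit, a block and leaving out each library.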

Additional observations from a re-analysis of the deposited data

Results flagged for a closer look

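In groups of 4 libraries, a value far from the other 3 (Dixon's gap criterion at 95%) was found in 3 of the 50 groups tested, and chance gives about 1 in 20 groups. All were healthy knock-in replicate 2. H19 in the tibialis had 1874 CPM there, with the nearest library at 494. Peg3 in the tibialis had 123 CPM, with the nearest at 43.4. Mirg in the quadriceps had 3.98 CPM, with the nearest at 0.959.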

How the results depend on the processing

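No member reversed direction in a call under any alternative. Of the comparisons of single results with alternatives, 2157 kept their side of the threshold, 36 gained a call and 37 lost one. Peg3 in the gastrocnemius was called in 14 of 14 alternatives against wild type (log2 2.34 to 2.96, limma adjusted p = 0.00346 to 0.0366) and in 13 of 13 against healthy. The tibialis calls against wild type held in 9 of 14 alternatives for Igf2, 9 for Peg3 and 8 for Mest, and those against healthy in 5 of 14 for Igf2 and 6 for Peg3. The cause of each change below was not tested. Counts over all genes are given below only for leaving out 1 library, so the other member counts have no background beside them. In the gastrocnemius, the 1 member called in sick minus wild type became 2 with limma-trend, with sample quality weights, with only the 2 groups compared and with the replicate block, and 3 with all 32 libraries in the fit, and sick minus healthy became 2 with limma-trend, with quality weights and with the replicate block. In the quadriceps, sick minus wild type went from 0 members to 2 with quality weights, 1 with only the 2 groups and 1 with the replicate block, and sick minus healthy from 1 to 2 with quality weights, 0 with only the 2 groups and 2 with the replicate block. In the tibialis, sick minus healthy went from 2 members to 0 without the filter, 1 with quality weights and 0 with only the 2 groups, and to 3 with limma-trend, which added Mest (limma adjusted p = 0.0360), and the wild-type tibialis minus quadriceps went from 0 to 3 with quality weights and to 3 with the replicate block. Within a muscle the replicate numbers of different states share only a number (median r = 0.008), so the block there does not pair samples; it left Igf2 in the tibialis at a limma adjusted p of 0.0632 against wild type. Leaving out 1 library gave 1 to 2 members in both gastrocnemius comparisons of sick libraries, 0 to 1 and 0 to 2 in those of the quadriceps, 1 to 2 and 0 to 2 in those of the tibialis, 0 to 1 for the wild-type quadriceps minus gastrocnemius and 0 to 2 for the tibialis minus quadriceps. The same step moved the count over all genes, sick minus wild type, from 2087 to between 561 and 2547 in the gastrocnemius, from 2488 to between 83 and 4249 in the quadriceps and from 2621 to between 957 and 3043 in the tibialis. For sick minus healthy the count over all genes became 728 to 2394 in the gastrocnemius (1991 before) and 287 to 4096 in the quadriceps (2431 before). In the tibialis it became 266 to 2299 (1646 before). Between wild-type muscles it became 50 to 220 for quadriceps minus gastrocnemius (158 before) and 296 to 1187 for tibialis minus quadriceps (834 before). Depth limits Mirg, Dlk1, Igf2 and Mest most, with lowest counts of 3, 5, 10 and 14 reads.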

Other observations

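Dlk1 and Meg3 are neighbours read from opposite alleles. The log2 of Dlk1 reads per Meg3 read, sick minus wild type, was -1.09, -0.54 and -1.97 in gastrocnemius, quadriceps and tibialis. By exact two-sided permutation tests these gave p = 0.143, 0.0857 and 0.0857, and after adjustment over the 9 comparisons of this ratio the lowest value was 0.225, so none passed.

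Of the other imprinted genes tested, 1 was higher and 3 were lower of 36 in the sick against the healthy gastrocnemius. In the quadriceps 2 were higher and 1 lower of 33, and in the tibialis 1 higher and 2 lower of 37. Of all genes tested, 14.1%, 17.6% and 11.3% were called in these comparisons. Against healthy libraries, Asb4 fell by 1.60 and Airn by 0.96 in the sick gastrocnemius, Cd81 fell by 0.64 in the quadriceps and 0.80 in the tibialis, and Sgce fell by 0.64 in the tibialis. Zrsr1 rose by 1.03, 0.99 and 0.90 in gastrocnemius, quadriceps and tibialis, and H13 rose by 0.42 in the quadriceps. Each of these was under an adjusted p of 0.05 by limma. Between wild-type muscles, Usp29, which neighbours Peg3, was 2.25 ± 0.48 higher on the log2 scale in the quadriceps than in the gastrocnemius (limma adjusted p = 0.0439).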
